A study of Mus musculus with 9 samples.

Results

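Livers of mice fed a high-fat diet mixed with Astragalus polysaccharides (HFD+APS) were compared with livers of mice fed the high-fat diet alone (HFD) across all genes measured. The comparison used 6 of the 9 arrays, 3 HFD+APS and 3 HFD, and the 3 chow arrays entered only the shared estimate of the spread and the reference values. All livers came from male C57bl/6J mice aged 16 weeks that had eaten their diet for 12 weeks. The high-fat diet supplied 60% of its energy as fat, and the HFD+APS diet was the same one with 40 g of polysaccharides per kg. The study held 24 mice, and the 3 livers per group were picked after their histology and triglyceride content were known. The p-values therefore set each difference against the spread among these picked livers, those of chow included, and not among all mice. What the picking did to the differences was not tested. A feature entered when the scanner software had called its probe well above background on at least 3 of the 6 arrays, which left 15372 features from 22875 of the 41174 probes.

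A liver under a high-fat diet stores triglyceride in droplets, and the coat of the droplet (perilipins and CIDE proteins) together with fatty acid uptake and glycerolipid synthesis sets how much it holds. Hepatocytes of an adult mouse seldom divide, so transcripts of mitosis are normally scarce in liver. Astragalus polysaccharides are the water-soluble sugar polymers of the root of Astragalus, given here by mouth in the food.

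HFD+APS livers had less RNA for the droplet protein Cidea, the galectin Lgals1, the acylglycerol acyltransferase Mogat1, the fatty acid receptor Cd36 and most mitosis genes tested. They had more RNA for some Cyp3a enzymes, the male-type steroid enzyme Hsd3b5, Srgap3 and several genes of the urea cycle and transsulfuration. In limma with Benjamini-Hochberg adjustment over all features, 188 were lower (1.22% of those tested) and 77 were higher (0.501%) at an adjusted p under 0.05. Many of these rises were not stable. Among 9 fits that each left out 1 array, Srgap3 and Slc7a2 were called in 9 and Cth in 8. Cps1 and Asl were called in 4, Hsd3b5, Cyp3a11 and Cyp3a44 in 2 and Arg1 in 0. At an unadjusted p under 0.05 in limma, 1420 of all 15372 features were lower and 1335 higher. The median over all features was 0.01 on the log2 scale. In 114 of the 188 and 42 of the 77 the change was at least 2-fold, and in 33 and 10 it was at least 4-fold. In every called feature the HFD+APS values lay outside the range of the HFD values (Arg1 had values on 2 HFD+APS arrays), whereas over all features 11.8% had all HFD+APS values below and 13.3% had all above.

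The number of calls depended on single arrays. It lay between 39 and 376 for lower and between 21 and 117 for higher features when each array was left out in turn, with the fewest without HFD+APS 2 and the most without HFD+APS 1. Without HFD 1 it was 58 and 31, without HFD 3 it was 82 and 40, without HFD+APS 3 it was 48 and 23, and without chow 3 it was 90 and 38. Of the calls, 26 lower and 14 higher passed in all 9 of those fits. A fit on the 6 arrays alone, which has fewer samples to estimate the spread, called 24 lower and 9 higher. In every fit run, 14 lower genes were tested and passed (Anxa2, Bex4, Ccnb2, Cd36, Cdkn3, Cyp2b9, H2-Q1, Lgals1, Mogat1, Nt5e, Rcan2, Tceal8, Uck1 and Wfdc2). Of the higher genes, 2 did so (Scnn1a and Slco2a1). The fit limited to features well above background on all 6 arrays tested only 141 of the lower and 54 of the higher calls. Genes not tested there could not enter this set. Adgrf1 (higher) and Lockd (lower) were left out for this reason and passed in every fit that tested them.

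The arrays lay on 3 slides. HFD 1, HFD 2, HFD 3 and HFD+APS 1 shared a slide, HFD+APS 2 and HFD+APS 3 had another, and the chow arrays the remaining one. No chow array shared a slide with an HFD or HFD+APS array. In every difference from chow given here, diet and slide therefore cannot be told apart. On the shared slide 50.4 to 54.1% of spots were well above background, against 63.5 and 64.5% on the slide of HFD+APS 2 and HFD+APS 3, and the mean signal of negative controls was 62.4 to 68.4 against 44.0 and 47.6. On the chow slide these were 61.5 to 68.4% and 48.9 to 49.4. The difference between the diets was therefore also taken within the shared slide, from HFD+APS 1 against the 3 HFD arrays. Since both comparisons share HFD+APS 1 and the HFD arrays and the called groups do not overlap, the direction within the slide is the same for all called features by construction and says nothing about the slide. Within the slide 108 features were called lower (0.703%) and 127 higher (0.826%), among them 62 of the 188 and 27 of the 77. With the slide as a random block, 129 were lower and 53 higher.

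**Figure D1:**
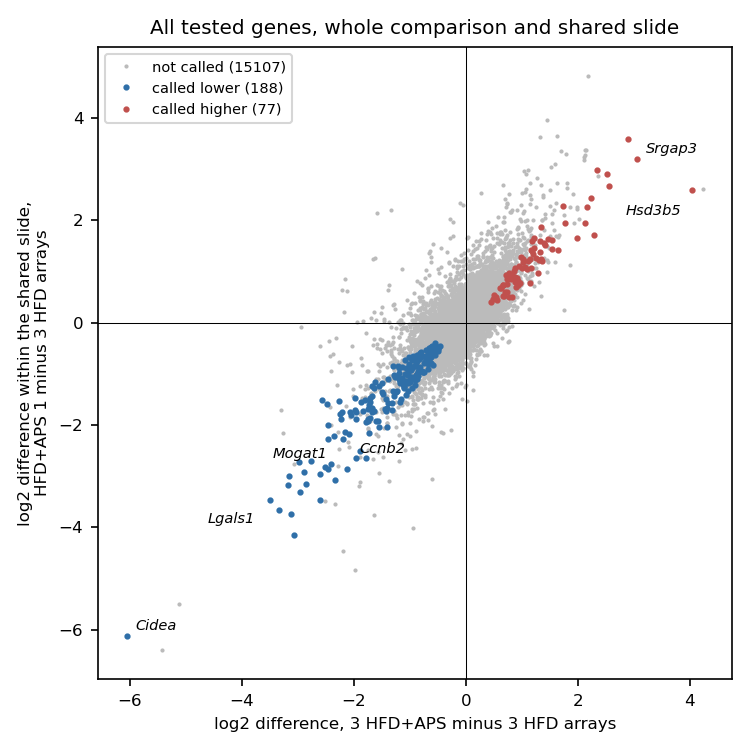
Each point is a tested feature, with the log2 difference of 3 HFD+APS minus 3 HFD arrays on the horizontal axis and the log2 difference within the shared slide, HFD+APS 1 minus the 3 HFD arrays, on the vertical axis. The 188 features called lower lie at the lower left and the 77 called higher at the upper right, and HFD+APS 1 enters both axes, so the shared direction of the called features is not independent.

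The largest fall called was that of a fat storage gene. Cidea, a droplet protein that lets lipid droplets fuse and grow, had log2 signals relative to the array's 75th percentile of 6.06, 2.93 and 4.06 on the HFD arrays and of -1.78, -1.57 and -1.79 on the HFD+APS arrays. The groups were far apart, and HFD 1 was the highest and HFD 2 the lowest of the HFD arrays. Cidea fell by 6.06 ± 0.64 (SE) on the log2 scale, 66.7-fold (adjusted p = 0.00783), and its probe lies at chr18:67527351-67527410 (mm9). It was -6.12 within the shared slide (adjusted p = 0.036). Against chow (-2.89 ± 0.22, SD, n = 3), HFD was 7.24 higher (adjusted p = 0.00156) and HFD+APS 1.18 higher (adjusted p = 0.292), and these 2 comparisons share the chow arrays with each other and the HFD or HFD+APS arrays with the main one.

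Cidea is also a gene of fat cells, and from bulk RNA fewer cells of a type and less RNA per cell cannot be told apart. Of the 9 adipocyte markers listed, Adipoq, Lep and Plin1 were not well above background on any of the 6 arrays. Retn was so on too few arrays to be tested. Of the 5 tested members, 4 were lower and 0 higher at an unadjusted p under 0.05 in limma. The part of fat cells in these falls was not tested. The 5 tested members (Cidea, Cfd, Cidec, Fabp4 and Lipe) had a summed signal, in units of the array's 75th percentile, of 31.0 to 139 on HFD and 6.63 to 19.5 on HFD+APS arrays, and Cidea is part of that sum. Cfd, the secreted protease adipsin, had values of 4.37, 1.38 and 4.12 on HFD and of -2.21, -1.64 and -1.63 on HFD+APS arrays. The groups did not overlap, but chow livers were as variable (-1.14 ± 3.12, SD, n = 3), and the difference of -5.12 ± 1.42 did not pass (adjusted p = 0.119). Fabp4, a fatty acid carrier, differed by -1.09 and did not pass either (adjusted p = 0.185). Cfd and Fabp4 were named after their values were seen.

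Mogat1, which makes diacylglycerol from monoacylglycerol, gave 2.08, 1.77 and 1.86 on HFD and -0.37, -0.27 and -0.23 on HFD+APS arrays. Both groups were tight and did not overlap. It fell by 2.19 ± 0.13, 4.57-fold (adjusted p = 0.000392), its 3 probes gave -2.66 to -2.07, and the probe used lies at chr1:78534646-78534705 (mm9). Within the shared slide the difference was -2.28 (adjusted p = 0.00519). HFD exceeded chow by 2.69 and HFD+APS exceeded chow by 0.50 (adjusted p = 0.0667). Mogat1 was the only called gene of the 15 of triglyceride synthesis (1.22% of all features were lower), and the list's median was -0.17. At an unadjusted p under 0.05, limma gave 3 of the 15 lower and 0 higher (1420 and 1335 of all 15372 features).

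Cd36, a receptor that takes up long-chain fatty acids, had 3.40, 3.32 and 3.45 on HFD and 1.77, 1.47 and 1.73 on HFD+APS arrays. The HFD values had an SD of 0.07 and were all above every HFD+APS value. It fell by 1.73 ± 0.19, 3.32-fold (adjusted p = 0.0079), and by 1.62 within the slide (adjusted p = 0.0431). Of the 15 tested genes of fatty acid uptake and binding it was the sole one called (1.22% of all features were lower), with a list median of 0.01. At an unadjusted p under 0.05, limma gave 5 of the 15 lower and 2 higher (1420 and 1335 of all 15372 features).

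Plin4, a perilipin that coats nascent droplets, had 4.80, 3.30 and 3.98 on HFD and 1.80, 1.38 and 1.83 on HFD+APS arrays. It fell by 2.36 ± 0.33 (adjusted p = 0.0182), and the call was lost without HFD+APS 2 and without HFD+APS 3 (highest adjusted p = 0.067). HFD+APS was below chow as well (difference -1.62, adjusted p = 0.0419), while HFD was 0.73 above chow (adjusted p = 0.164). Cidec, a sister protein of Cidea, had 5.49, 3.86 and 4.13 on HFD against 3.88, 1.06 and 1.44 on HFD+APS arrays. HFD+APS 1 lay among the HFD arrays here, and the difference of -2.37 ± 0.72 did not pass (adjusted p = 0.146). The value was -0.62 within the shared slide. Plin2, the abundant perilipin of liver, differed by -0.24 (adjusted p = 0.659) over all arrays and by 0.36 within the slide. In all, 2 of 17 lipid droplet genes were lower (1.22% of all features were) and 0 higher (0.501%), with a median of -0.22. At an unadjusted p under 0.05, limma gave 5 lower and 1 higher (1420 and 1335 of all 15372 features).

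**Figure D2:**
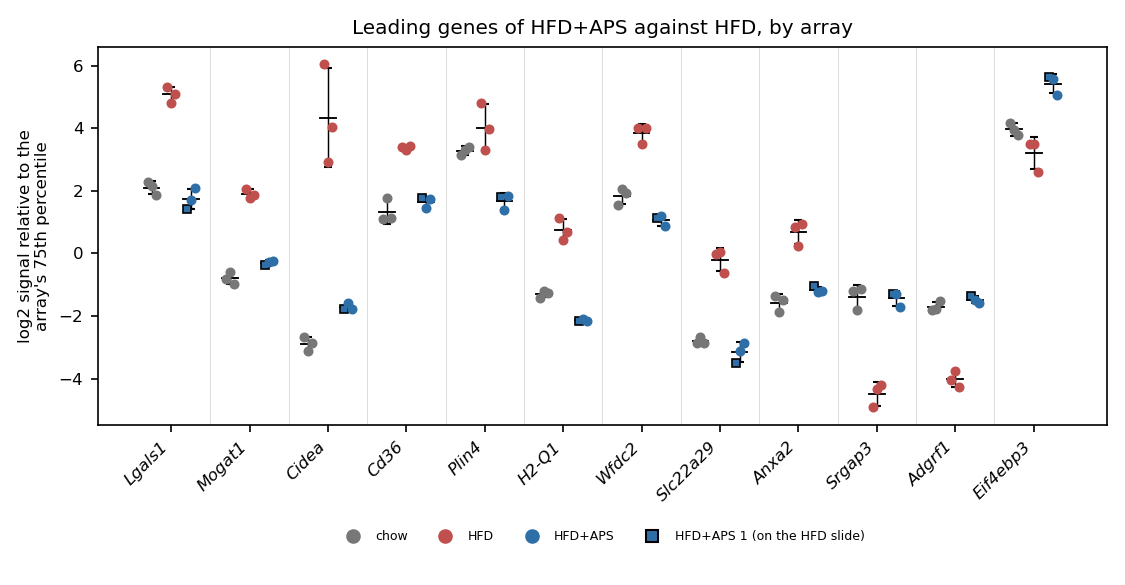
Points are log2 signals relative to the array's 75th percentile for 12 genes on the 3 chow, 3 HFD and 3 HFD+APS arrays, with bars for the mean and SD of each group. Squares mark HFD+APS 1, on the HFD slide, which sits with the other HFD+APS arrays for all 12 genes. All 12 are called genes, whose groups do not overlap, so this follows from their choice and says nothing about the slide.

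Fat synthesis from sugar gave no call. Among the 20 genes of lipogenesis and desaturation 0 passed in either direction, 17 were below 0 (49.1% of all features were), and the median was -0.30. At an unadjusted p under 0.05, limma gave 8 lower and 2 higher (1420 and 1335 of all 15372 features). Scd1, the desaturase that makes oleate, had 7.86, 7.54 and 7.14 on HFD and 4.57, 7.20 and 6.10 on HFD+APS arrays. HFD+APS 1 stood far below and HFD+APS 2 inside the HFD range, so the difference of -1.56 ± 0.59 did not pass (adjusted p = 0.215), although it was -2.94 within the shared slide (adjusted p = 0.0439). Fasn, fatty acid synthase, showed the same layout, with 5.41, 5.17 and 5.13 on HFD against 3.96, 5.26 and 4.99 on HFD+APS arrays (difference -0.50, adjusted p = 0.467). Thrsp, a lipogenic regulator named after its values were seen, had 4.65, 4.29 and 2.26 on HFD and 0.19, 2.05 and 1.93 on HFD+APS arrays. It was lowest on HFD+APS 1, and the difference of -2.34 did not pass (adjusted p = 0.156). Pparg, a driver of fat storage, differed by -0.78 (adjusted p = 0.19), Acaca by -0.18 (adjusted p = 0.68) and Srebf1 by -0.10 (adjusted p = 0.924).

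In the list of cholesterol synthesis and uptake 0 of 24 genes passed in the whole comparison, where the median was -0.08, but the median was -0.75 within the shared slide. At an unadjusted p under 0.05 in limma, 3 were lower and 0 higher in the whole comparison (1420 and 1335 of all 15372 features). The median of the list, each gene centred on its mean over all arrays, was -0.68 on HFD+APS 1 and 0.18 and 0.05 on HFD+APS 2 and HFD+APS 3. Sqle, squalene epoxidase, named after its values were seen, had -1.50 on HFD+APS 1 against 1.22 and 0.84 on the others, and 0.56, 0.14 and 1.18 on HFD arrays.

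Fat burning gave no call. Of 34 genes of fatty acid oxidation and ketogenesis 0 passed, 17 were above and 17 below 0, and the median was 0.00. At an unadjusted p under 0.05, limma gave 6 lower and 2 higher (1420 and 1335 of all 15372 features). Cyp4a14, a PPAR alpha target that oxidises fatty acids, differed by 0.33 ± 0.26 (adjusted p = 0.538). Fgf21, the fasting hormone of liver, had 2.32 on HFD+APS 1 and 0.16 and 0.27 on the other HFD+APS arrays, so its difference of -0.08 (adjusted p = 0.953) averaged opposite values. Apoa4, an apolipoprotein that rises with hepatic fat, had 5.60, 5.69 and 5.10 on HFD and 3.86, 3.23 and 1.85 on HFD+APS arrays. It fell by 2.48 ± 0.48 (adjusted p = 0.0463), and the call held only without HFD+APS 1 among the 9 fits that left out an array (highest adjusted p = 0.13). Apoa4 was the sole call of 19 genes of lipoproteins and sterol efflux (1.22% of all features were lower). At an unadjusted p under 0.05, limma gave 2 of the 19 lower and 3 higher.

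Many genes of cell division were lower. Of the 20 tested genes of mitosis and spindle, 12 were lower and 0 higher, against the 1.22% of all features that were lower, and the list's median was -1.63. The promoters of 3 of the called genes are shown because mitosis genes are known to carry 2 shared elements, the CCAAT box bound by NF-Y and the CHR element TTTGAA bound by the DREAM and MuvB complexes. Each line gives the 250 bases before the start of transcription, 5′ to 3′ on the gene's strand, from RefSeq on GRCm38.p6, with matches to either motif, read on both strands, in capitals. The windows are chr9:70421555-70421804 for Ccnb2, chr4:118437344-118437593 for Cdc20 and chr7:135716380-135716629 for Mki67, all on the minus strand.
Ccnb2: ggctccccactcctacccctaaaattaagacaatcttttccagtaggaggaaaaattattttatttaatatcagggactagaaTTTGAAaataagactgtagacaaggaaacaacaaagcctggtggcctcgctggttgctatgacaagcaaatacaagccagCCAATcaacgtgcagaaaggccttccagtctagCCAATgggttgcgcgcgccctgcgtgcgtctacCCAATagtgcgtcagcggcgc
Cdc20: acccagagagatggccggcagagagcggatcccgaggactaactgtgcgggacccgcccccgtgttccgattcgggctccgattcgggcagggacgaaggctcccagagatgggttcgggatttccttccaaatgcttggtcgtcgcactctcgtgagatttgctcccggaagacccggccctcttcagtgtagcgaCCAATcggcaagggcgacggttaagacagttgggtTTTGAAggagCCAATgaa
Mki67: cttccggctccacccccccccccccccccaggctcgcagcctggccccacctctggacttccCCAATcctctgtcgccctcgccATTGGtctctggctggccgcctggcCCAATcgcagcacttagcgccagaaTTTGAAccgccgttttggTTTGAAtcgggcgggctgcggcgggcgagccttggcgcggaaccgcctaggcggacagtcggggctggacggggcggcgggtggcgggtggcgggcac
The Ccnb2 window holds 3 CCAAT and 1 TTTGAA match, that of Cdc20 holds 2 and 1, and that of Mki67 holds 3 and 2. Over the 250 bases before the start of all 27025 genes with a window, 37.5% had a CCAAT and 18.3% a TTTGAA match. Of the 17 tested mitosis genes with a window 15 had the former and 7 the latter, and of the 10 called ones 9 and 5. A match describes these letters and is not a measured binding site.

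Ccnb2, cyclin B2, which activates the kinase that starts mitosis, had 0.67, 1.32 and 1.12 on HFD and -1.14, -1.31 and -0.74 on HFD+APS arrays. The groups were separated by more than the spread of either, and chow livers (-1.0 ± 0.20, SD, n = 3) lay among the HFD+APS ones. It fell by 2.10 ± 0.21, 4.28-fold (adjusted p = 0.00705), by 2.17 within the slide (adjusted p = 0.0258), and its probe lies at chr9:70255671-70255730 (mm9). Cdc20, the activator of the anaphase-promoting complex, had -0.54, 0.37 and 0.69 on HFD and -2.11, -2.73 and -2.01 on HFD+APS arrays. It fell by 2.46 ± 0.32 (adjusted p = 0.0142), and the call was lost without HFD+APS 2 (adjusted p = 0.0507). Kif20a, a kinesin of the late spindle, fell by 2.05 ± 0.24 (adjusted p = 0.0104) and passed in all 9 fits that left out an array. Mki67, the usual marker of cycling cells, had -0.29, 0.29 and 0.52 on HFD and -1.11, -1.96 and -1.37 on HFD+APS arrays, without overlap. It fell by 1.65 ± 0.26 (adjusted p = 0.0253), and the call was lost without chow 3, HFD 2, HFD 3, HFD+APS 2 and HFD+APS 3 in turn (highest adjusted p = 0.0785). Cenpe, a kinetochore motor, fell by 1.67 ± 0.23 (adjusted p = 0.0176) and lost its call without HFD+APS 2 and without HFD+APS 3 (highest adjusted p = 0.0634).

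The other 7 called mitosis genes, named after their values were seen, were Ccna2, Plk1, Prc1, Ube2c, Aurka, Birc5 and Nek2, which fell by 1.11 (Nek2) to 1.99 (Ccna2). Every one of these 7 lost its call without HFD 2, without HFD 3 and without HFD+APS 2, and the highest adjusted p with an array left out ran from 0.0747 for Prc1 to 0.115 for Plk1. The largest misses were Tpx2 at -2.26 (adjusted p = 0.0729) and Nusap1 at -1.35 (adjusted p = 0.0531). Not all members moved this way: Bub1 differed by 0.05, Kif11 (not well above background on any HFD array) by 0.13 and Hmmr by 0.43, all named after their values were seen. Hmmr had -1.20 on HFD+APS 1 against -3.25 and -3.19 on the other HFD+APS arrays, and was 1.77 higher within the slide (adjusted p = 0.00519). The count of 12 was 2 without HFD+APS 2, 4 without each of HFD 2, HFD 3 and HFD+APS 3, 6 without chow 3, and 11 or 12 without any other array. It was 1 on the 6 arrays alone and 4 without a filter on dim probes. Within the shared slide 2 were called lower and 1 higher, with a median of -1.36, and normexp background correction left 11 calls with a median of -0.78.

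HFD livers held the higher level of these genes in relation to chow too. The list's median was 1.86 for HFD minus chow and 0.31 for HFD+APS minus chow, 2 comparisons that share the chow arrays. The chow arrays had a slide of their own, so diet and slide cannot be told apart in both. Cell cycle genes outside the list that were among the called features included Cdkn3, a phosphatase of cyclin-dependent kinases, with -0.61, 0.18 and 0.43 on HFD and -2.74, -3.21 and -3.03 on HFD+APS arrays. Cdkn3 fell by 2.99 ± 0.32 (adjusted p = 0.00796) and passed in every fit. Ccne1, cyclin E1 of the entry into S phase, named after its values were seen, fell by 1.75 ± 0.18 (adjusted p = 0.00758). Lockd, a long noncoding RNA beside Cdkn1b, fell by 3.50 ± 0.33 (adjusted p = 0.00521).

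**Figure D3:**
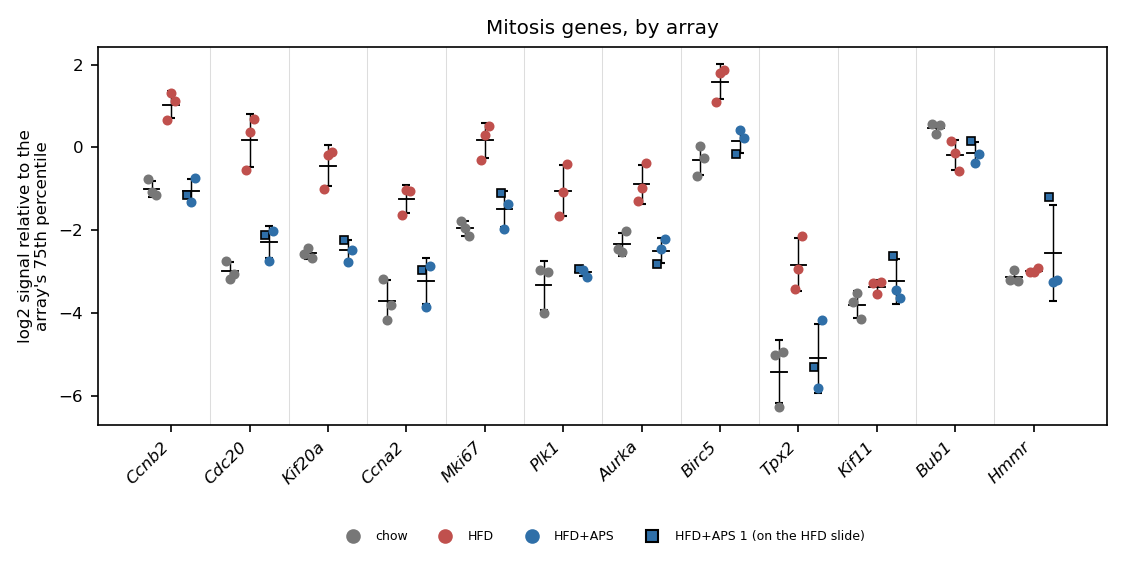
Points are log2 signals relative to the array's 75th percentile for 12 mitosis genes on the 3 chow, 3 HFD and 3 HFD+APS arrays, with bars for the mean and SD. From Ccnb2 to Tpx2 the HFD points lie above the HFD+APS points, while those of Kif11 and Bub1 overlap, and HFD+APS 1 (square) is the highest HFD+APS point for Hmmr.

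Of 28 genes of DNA replication and S phase 2 were lower (1.22% of all features were) and 0 higher, with a median of -0.44. At an unadjusted p under 0.05, limma gave 14 lower and 0 higher (1420 and 1335 of all 15372 features). Mcm5, a subunit of the replicative helicase, fell by 1.18 ± 0.23 (adjusted p = 0.0442), and Gins2, a subunit of its activating complex, fell by 1.01 ± 0.20 (adjusted p = 0.0482). Mcm5 lost its call in all 9 fits that left out an array (highest adjusted p = 0.143), and Gins2 kept it only without HFD 1 (highest adjusted p = 0.156).

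Targets of p53, the transcription factor of the DNA damage response, were lower in 4 of 13 cases (1.22% of all features were) and higher in 0, with a median of -0.56. The count was 0 on the 6 arrays alone, without a filter on dim probes and without HFD+APS 2, 1 within the slide and without HFD 1, and 2 without HFD+APS 3. Psrc1, a spindle protein that is also a p53 target, had -3.01, -2.46 and -1.91 on HFD and -4.60, -5.03 and -4.22 on HFD+APS arrays. It fell by 2.15 ± 0.32 (adjusted p = 0.0204), and the call was lost without HFD+APS 2 (adjusted p = 0.0692). Phlda3, an inhibitor of AKT, fell by 1.80 ± 0.26 (adjusted p = 0.0203), with losses without HFD 1, HFD+APS 2 and HFD+APS 3 (highest adjusted p = 0.0735). Ccng1, cyclin G1, fell by 0.88 ± 0.12 (adjusted p = 0.0142), lost without HFD 1 and without HFD+APS 2 (highest adjusted p = 0.06). Zmat3, an RNA-binding p53 target, fell by 0.70 ± 0.13 (adjusted p = 0.0427) and passed in none of the 9 fits (highest adjusted p = 0.13). Cdkn1a, the p21 inhibitor, named after its values were seen, had 2.18 on HFD+APS 1 against 0.24 and 0.63 and did not pass (difference -0.76, adjusted p = 0.662).

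Lgals1, galectin-1, a secreted lectin that binds galactosides on cell surfaces, had the smallest adjusted p of the comparison together with Mogat1, H2-Q1 and Adgrf1. It had 5.33, 4.83 and 5.11 on HFD and 1.42, 1.73 and 2.08 on HFD+APS arrays, and 2.11 ± 0.21 (SD, n = 3) on chow arrays. HFD+APS and chow values overlapped, and every HFD value was far above both. Lgals1 fell by 3.35 ± 0.20, 10.2-fold (adjusted p = 0.000392), and by 3.67 within the slide (adjusted p = 0.00456), and its probe lies at chr15:78760566-78760625 (mm9). HFD exceeded chow by 2.98 (adjusted p = 0.0006), and HFD+APS differed from chow by -0.36 (adjusted p = 0.298), with the chow arrays on a slide of their own.

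Of the 21 galectins, annexins and S100 proteins, 4 were lower (1.22% of all features were) and 0 higher, with a median of -0.50. Anxa2, a calcium-dependent membrane binder, had 0.84, 0.24 and 0.96 on HFD and -1.06, -1.22 and -1.20 on HFD+APS arrays, and fell by 1.84 ± 0.20 (adjusted p = 0.00823). Anxa5, which binds phosphatidylserine, fell by 0.89 ± 0.10 (adjusted p = 0.00823). S100a10, the partner of Anxa2, fell by 0.50 ± 0.10 (adjusted p = 0.0499), and passed in none of the 9 fits that left out an array (highest adjusted p = 0.162). Anxa8, outside the list, fell by 2.61 ± 0.46 (adjusted p = 0.0339), and the call was kept only without chow 1 and without chow 2 (highest adjusted p = 0.108). The neutrophil pair S100a8 and S100a9, named after their values were seen, did not pass (adjusted p = 0.507 and 0.456).

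Neutrophil markers were highest on HFD 3. Of the 5 tested neutrophil markers 0 passed, and 2 were lower at an unadjusted p under 0.05 in limma (1420 of all 15372 features were). Their centred median was 2.82 on HFD 3, against 0.46 and -0.12 on HFD 1 and HFD 2, and 0.28, -0.50 and -0.91 on the HFD+APS arrays. Their summed signal ran from 4.54 to 47.9 on HFD and from 2.77 to 8.58 on HFD+APS arrays, and Camp and Elane were not well above background on any of the 6. The 11 tested markers of monocyte-derived macrophages gave 0 calls (4 lower at that unadjusted p), a median of -0.70 and summed signals of 36.8 to 88.2 on HFD and 20.9 to 36.0 on HFD+APS arrays. The 15 Kupffer cell markers gave 0 calls (0 also at that unadjusted p) and a median of -0.15, with sums of 140 to 194 on HFD and 115 to 196 on HFD+APS arrays. The part of immune cells in the falls of Lgals1, Anxa2, Anxa5 and S100a10 was not tested.

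The inflammatory lists themselves gave no call. For comparison, 1420 of all 15372 features were lower and 1335 higher at an unadjusted p under 0.05 in limma. Of 27 acute phase proteins 0 passed (1 lower and 2 higher at an unadjusted p under 0.05 in limma), and their median was -0.49 over all arrays, 0.17 within the slide and -0.06 without HFD 3. Saa1, a serum amyloid, had 7.15, 5.57 and 10.11 on HFD and 8.46, 3.70 and 4.19 on HFD+APS arrays, a spread wider than the difference of -2.16 ± 1.69 (adjusted p = 0.535). Lcn2, the siderophore-binding lipocalin named after its values were seen, was likewise highest on HFD 3, at 6.28 (difference -2.61, adjusted p = 0.417). Of 27 cytokine, chemokine and NF-kB genes 0 passed (7 lower and 0 higher at that unadjusted p), with a median of -0.49 and -0.12 within the slide. Ccl2, which draws monocytes into tissue, had -0.20, -0.08 and 1.50 on HFD and -0.55, -2.15 and -1.40 on HFD+APS arrays (difference -1.77 ± 0.54, adjusted p = 0.143). Of 31 interferon response genes 0 passed, with a median of -0.23 and 4 lower at that unadjusted p. The macrophage genes Trem2 and Adgre1 differed by -0.69 and -0.28 (adjusted p = 0.485 and 0.724).

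Matrix genes gave 1 call among 24, a lower one (1.22% of all features were), with a median of -0.32. At an unadjusted p under 0.05, limma gave 7 lower and 0 higher (1420 and 1335 of all 15372 features). Col3a1, a fibrillar collagen, had 1.98, 1.77 and 2.68 on HFD and 0.75, 0.76 and 0.46 on HFD+APS arrays, and fell by 1.49 ± 0.29 (adjusted p = 0.0499). The call was kept only without chow 1 and without chow 2 (highest adjusted p = 0.147). Col1a1, the main collagen of scar tissue, differed by -1.69 ± 0.44 and did not pass (adjusted p = 0.103). The 16 stellate cell markers had summed signals of 211 to 242 on HFD and 211 to 239 on HFD+APS arrays, with 1 of them, Col3a1, lower. Tubb6, a beta-tubulin, fell by 2.08 ± 0.23 (adjusted p = 0.00823), but its other probe gave -0.06. Of 22 lysosome genes 2 were lower (1.22% of all features were) and 0 higher, with a median of -0.16. Hexa, a subunit of lysosomal hexosaminidase, fell by 0.63 (adjusted p = 0.0378). Hexa was called in only 1 of the 9 fits that left out an array, the one without HFD 2 (highest adjusted p = 0.125).

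Enzymes of drug and steroid metabolism moved in both directions. In the list of Cyp2b and Cyp3a enzymes with their regulators, 3 of 12 were higher, against the 0.501% of all features that were higher, and 2 were lower. Probes of these paralogs can read each other's transcripts. Cyp2b9, a female-biased P450 that CAR induces, had 6.23, 6.58 and 5.57 on HFD and 3.30, 3.78 and 3.76 on HFD+APS arrays, and 1.63 ± 0.18 (SD, n = 3) on chow arrays. The 3 groups were separate, with HFD+APS between the other groups. Cyp2b9 fell by 2.51 ± 0.26, 5.7-fold (adjusted p = 0.00705), and stayed 1.99 above chow (adjusted p = 0.0153). Cyp2b13, its neighbour, fell by 2.47 ± 0.32 (adjusted p = 0.0142). Cyp2b10, the classical CAR target, had 0.98, 2.39 and 0.08 on HFD against -0.70, -1.20 and -0.84 on HFD+APS arrays, without overlap, but its difference of -2.07 ± 0.49 did not pass (adjusted p = 0.0754).

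Of the 6 Cyp3a genes tested 3 were higher, and Cyp3a13 (0.17), Cyp3a25 (0.58) and Cyp3a41a (1.48) did not pass (adjusted p = 0.818, 0.213 and 0.0617). The higher count was 0 on the 6 arrays alone, within the slide, without a filter on dim probes, and without chow 2, chow 3, HFD+APS 2 or HFD+APS 3. Cyp3a11, the main P450 of drug oxidation in mouse liver, had 5.0, 4.90 and 3.51 on HFD and 6.19, 7.16 and 6.92 on HFD+APS arrays, and 6.51 ± 0.22 (SD, n = 3) on chow arrays. HFD 3 was the lowest of all, and chow and HFD+APS values overlapped. Cyp3a11 rose by 2.29 ± 0.41, 4.88-fold (adjusted p = 0.035), Cyp3a16 by 2.13 ± 0.36 (adjusted p = 0.0292) and Cyp3a44 by 1.99 ± 0.38 (adjusted p = 0.0457). Within the slide the 3 differed by 1.72, 1.94 and 1.65 and did not pass (adjusted p = 0.19, 0.14 and 0.221). The calls of all 3 were lost without chow 2, chow 3, HFD+APS 2 and HFD+APS 3, and those of Cyp3a11 and Cyp3a44 also without chow 1, HFD 1 and HFD 2 (highest adjusted p = 0.121 for Cyp3a11, 0.105 for Cyp3a16 and 0.145 for Cyp3a44).

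Genes with sex-biased or growth hormone responsive expression in liver were called in 8 of 22 cases, 4 higher (0.501% of all features were) and 4 lower (1.22%). The higher count was 0 on the 6 arrays alone, within the slide and without HFD+APS 3, 1 without HFD 1 and without a filter on dim probes, and 2 without HFD+APS 2, and the lower count was 1 on the 6 arrays alone and 2 within the slide and without HFD 1. Hsd3b5, a male-specific steroid reductase, had -0.02, 1.63 and -1.19 on HFD and 2.73, 4.98 and 4.85 on HFD+APS arrays. The groups did not overlap, and HFD+APS 1 was the lowest of its group. Hsd3b5 rose by 4.05 ± 0.79, 16.5-fold (adjusted p = 0.0482), the largest rise called, and the call was kept only without HFD 2 and without HFD+APS 1 (highest adjusted p = 0.154). Cyp7b1, a male-biased hydroxylase of oxysterols in the acidic bile acid pathway, had 4.73, 5.14 and 4.98 on HFD and 6.45, 5.96 and 6.65 on HFD+APS arrays. It rose by 1.41 ± 0.22 (adjusted p = 0.0248), lost without HFD 1, HFD 3 and HFD+APS 3 (highest adjusted p = 0.0788). Susd4, a complement regulator, rose by 1.32 ± 0.18 (adjusted p = 0.0149), lost without HFD+APS 2 and without HFD+APS 3 (highest adjusted p = 0.0577). C8b, a chain of the membrane attack complex, rose by 1.15 ± 0.16 (adjusted p = 0.0185), lost without HFD 1 and without HFD+APS 3 (highest adjusted p = 0.0735).

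Beside Cyp2b9 and Cyp2b13, Hao2 and Sult3a1 were the lower genes of that list, while other female-biased members did not pass, with Cyp2a4 at -0.16, Abcd2 at -0.44 and Prlr at 0.10. The male-biased Mup1 (-0.09), Mup3 (-0.14), Cyp4a12a (-0.04), Cyp2d9 (0.21), Selenbp2 (0.28) and Elovl3 (0.90), named after their values were seen, did not pass either. Hao2, a peroxisomal hydroxy acid oxidase, had -1.60, -1.99 and -2.82 on HFD and was not well above background on any HFD+APS array. Hao2 was at least 7.69-fold lower (adjusted p = 0.0186), lost without HFD 1 (adjusted p = 0.0611). The bound sets values of a group with no array well above background at no less than the lowest signal so called on each array. It concerns dim signal only and is not a confidence limit, and other processing can give a smaller difference. Sult3a1, a female-biased sulfotransferase, fell by 0.86 ± 0.17 (adjusted p = 0.0491) and lost its call in all fits that left out an array except the one without chow 1 (highest adjusted p = 0.138). Srd5a1, a steroid 5-alpha reductase named after its values were seen, rose by 1.29 ± 0.19 (adjusted p = 0.0213), lost without HFD+APS 2 and without HFD+APS 3 (highest adjusted p = 0.0787). Slco1a1, a male-biased organic anion carrier also named afterwards, was 1.87 higher and did not pass (adjusted p = 0.179).

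Among 34 other P450 and conjugation enzymes 2 were lower (1.22% of all features were) and 0 higher. Gstm2, a glutathione transferase, fell by 1.25 ± 0.20 (adjusted p = 0.0253), and the call was lost without HFD 1, HFD 2, HFD+APS 2 and HFD+APS 3 (highest adjusted p = 0.0853). Sult3a1 was the second. Cyp7b1 was the sole call of 19 bile acid genes (0.501% of all features were higher), of which 17 were above 0, with a median of 0.34. At an unadjusted p under 0.05, limma gave 7 of the 19 higher and 0 lower (1335 and 1420 of all 15372 features). Over all features 49.1% were below 0. Cyp7a1, the rate-limiting enzyme of bile acid synthesis, had 1.61, 2.86 and 1.22 on HFD and 1.74, 3.36 and 2.78 on HFD+APS arrays, overlapping groups that differed by 0.73 (adjusted p = 0.503) and by -0.15 within the slide.

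Of 10 genes of the urea cycle and its transporters, a list drawn up after the values were seen and so not tested as a list, 4 were higher (0.501% of all features were) and 0 lower, with a median of 0.49. Slc7a1 was at -0.28, and Ass1, Otc, Nags, Slc25a13 and Slc25a15 were between 0.09 and 0.55 and did not pass. The count was 0 on the 6 arrays alone, 1 within the slide, without a filter on dim probes and without chow 3, HFD 1, HFD 3 or HFD+APS 2, and 2 without chow 2 or HFD+APS 3. Cps1, carbamoyl phosphate synthetase, the first step of the cycle, had 6.57, 6.75 and 6.10 on HFD and 7.67, 7.55 and 7.53 on HFD+APS arrays, and 7.01 ± 0.24 (SD, n = 3) on chow arrays. Every HFD+APS value was above every HFD value. Cps1 rose by 1.11 ± 0.18, 2.16-fold (adjusted p = 0.0279), and the call was lost without chow 3, HFD 1, HFD 3, HFD+APS 2 and HFD+APS 3 (highest adjusted p = 0.0922). Asl, argininosuccinate lyase, had 5.01, 5.14 and 4.53 on HFD and 6.35, 6.23 and 5.77 on HFD+APS arrays. It rose by 1.22 ± 0.20 (adjusted p = 0.0281), lost without chow 2, chow 3, HFD 1, HFD 3 and HFD+APS 2 (highest adjusted p = 0.105). Slc7a2, a carrier of arginine and lysine, had 0.74, 0.57 and 0.33 on HFD and 1.94, 1.60 and 1.62 on HFD+APS arrays. It rose by 1.18 ± 0.14 (adjusted p = 0.0105), by 1.39 within the slide (adjusted p = 0.0187), and passed in all 9 fits that left out an array. Arg1, arginase, rose by 0.66 ± 0.11 (adjusted p = 0.0423) on 2 HFD+APS arrays, since the spot on HFD+APS 3 was marked as an outlier and left out. In the deposited table of all samples Arg1 differed by -0.23, and the call passed in none of the 9 fits that left out an array (highest adjusted p = 0.127).

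Transsulfuration, which turns homocysteine into cysteine, showed its 2 enzymes higher. Cth, cystathionine gamma-lyase, had 5.09, 5.44 and 5.31 on HFD and 6.86, 6.47 and 6.48 on HFD+APS arrays. It rose by 1.33 ± 0.18, 2.51-fold (adjusted p = 0.0144), by 1.59 within the slide (adjusted p = 0.0258), and lost its call without HFD 1 (adjusted p = 0.0505). Cbs, cystathionine beta-synthase, had 3.09, 3.13 and 3.01 on HFD and 3.96, 3.74 and 3.77 on HFD+APS arrays, and rose by 0.74 ± 0.11 (adjusted p = 0.0228). The call was lost without HFD 1, HFD 3, HFD+APS 2 and HFD+APS 3 (highest adjusted p = 0.0735), and the value within the slide was 0.88 (adjusted p = 0.0425). These were the 2 called of 13 genes of the methionine cycle and transsulfuration, a list also drawn up afterwards (0.501% of all features were higher). The count was 0 on the 6 arrays alone and without HFD 1, and 1 without a filter on dim probes and without HFD 3, HFD+APS 2 or HFD+APS 3. Asl, Slc7a2, Cth and Cbs were named after their values were seen. The 20 hepatocyte markers, which include Cps1 and Arg1, had a median of 0.19 and overlapping summed signals of 3369 to 3921 on HFD and 3515 to 4431 on HFD+APS arrays. At an unadjusted p under 0.05, limma gave 8 of the 20 higher and 1 lower (1335 and 1420 of all 15372 features). The part of hepatocytes in these rises was not tested.

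**Figure D4:**
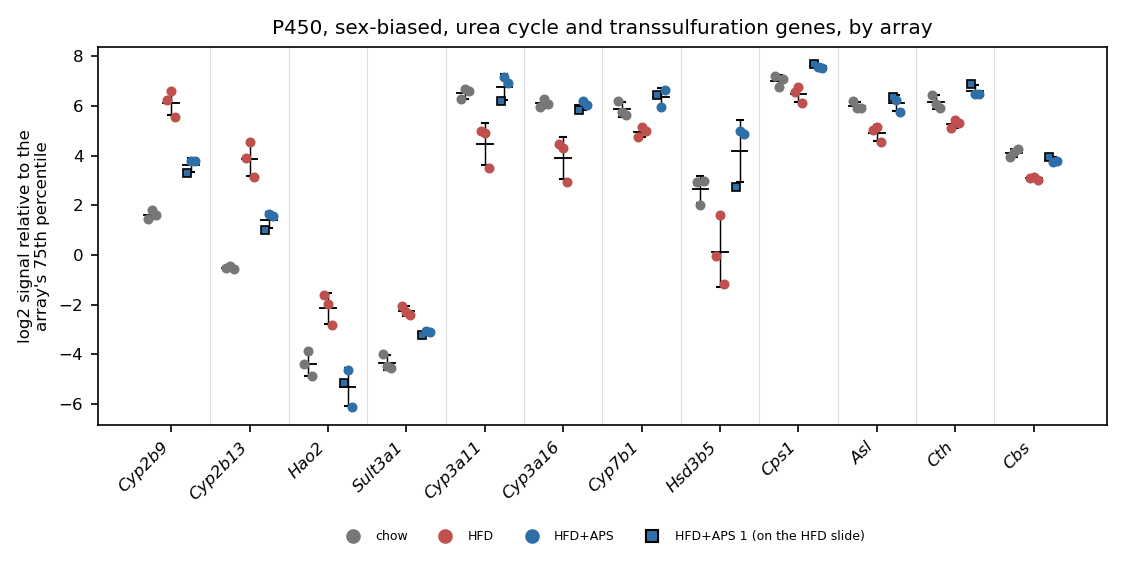
Points are log2 signals relative to the array's 75th percentile for 12 metabolic genes on the 3 chow, 3 HFD and 3 HFD+APS arrays, with bars for the mean and SD. The HFD points lie above the HFD+APS points for Cyp2b9, Cyp2b13, Hao2 and Sult3a1 and below them for the other 8 genes.

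Some of the largest rises lay outside the metabolic lists. Srgap3, a GTPase-activating protein first studied in neurons, had -1.30, -1.28 and -1.71 on HFD+APS arrays and was not well above background on any HFD array. It was at least 7.92-fold higher (adjusted p = 0.00237), with its probe at chr6:112668239-112668298 (mm9). Chow livers had -1.39 ± 0.38 (SD, n = 3), level with HFD+APS (difference -0.04, adjusted p = 0.936). Adgrf1, an adhesion receptor, had -1.35, -1.48 and -1.60 on HFD+APS arrays and was likewise not well above background on HFD arrays. By the same bound it was at least 5.85-fold higher (adjusted p = 0.000392), but this is no more than its fitted log2 difference of 2.55. That difference was 2.42 to 2.68 with an array left out and 0.95 to 2.67 under the alternatives that tested it. Its chow value was -1.70 ± 0.16 (SD, n = 3). Both genes passed in all 9 fits that left out an array, as did Eif4ebp3, a repressor of cap-dependent translation, with 3.50, 3.51 and 2.62 on HFD and 5.64, 5.59 and 5.07 on HFD+APS arrays. Eif4ebp3 rose by 2.23 ± 0.26, 4.68-fold (adjusted p = 0.0105), and was 1.47 above chow as well (adjusted p = 0.0333).

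Other leading rises rested on fewer fits. Meg3, an imprinted long noncoding RNA, rose by 2.51 ± 0.40 (adjusted p = 0.0253), lost without chow 3, HFD 1, HFD 2 and HFD+APS 3 (highest adjusted p = 0.0871). Atp12a, a proton pump, rose by 2.15 ± 0.34 (adjusted p = 0.0252), lost without chow 3, HFD 1, HFD 3, HFD+APS 2 and HFD+APS 3 (highest adjusted p = 0.0837). Avpr1a, the vasopressin receptor of hepatocytes, had -0.13, 0.38 and 0.57 on HFD and 1.70, 2.06 and 2.02 on HFD+APS arrays. It rose by 1.65 ± 0.24 (adjusted p = 0.0194), lost without HFD 1, HFD+APS 2 and HFD+APS 3 (highest adjusted p = 0.0766). Mef2b and Grid1, not well above background on any HFD array, were at least 2.45-fold and at least 2.83-fold higher (adjusted p = 0.0155 and 0.0423). Mef2b lost its call without HFD 1, HFD+APS 2 and HFD+APS 3, and Grid1 kept it only without HFD 2 (highest adjusted p = 0.0614 and 0.122).

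Among the leading falls, H2-Q1, a nonclassical class I molecule, had 1.14, 0.44 and 0.68 on HFD and -2.17, -2.11 and -2.15 on HFD+APS arrays. It fell by 2.90 ± 0.17, 7.45-fold (adjusted p = 0.000392), to below chow (difference -0.85, adjusted p = 0.0392), and its probe may read related Q-region genes. Wfdc2, a secreted protease inhibitor of epithelia, had 4.02, 3.50 and 4.01 on HFD and 1.13, 1.21 and 0.86 on HFD+APS arrays, and fell by 2.77 ± 0.19 (adjusted p = 0.000923). Slc22a29, an organic anion transporter of the Slc22 family, fell by 2.97 ± 0.21 (adjusted p = 0.00113) and passed in all 9 fits that left out an array. Mmd2, a membrane receptor of the PAQR family, fell by 3.07 ± 0.53 (adjusted p = 0.0311), to below chow (difference -2.64, adjusted p = 0.0399), and lost its call without chow 3, HFD 1, HFD 3 and HFD+APS 3 (highest adjusted p = 0.0891).

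Fam183b and Flacc1, not well above background on any HFD+APS array, were at least 7.49-fold and at least 6.04-fold lower (adjusted p = 0.019 and 0.0378). Fam183b lost its call without HFD 1, HFD 3, HFD+APS 2 and HFD+APS 3, and Flacc1 kept it only without HFD 2 (highest adjusted p = 0.0642 and 0.12). Hspa1a, an inducible chaperone whose probes may also read its twin Hspa1b, fell by 1.72 ± 0.34 (adjusted p = 0.0486) and kept its call only without HFD 3 (highest adjusted p = 0.154). It was also lower in HFD than in chow (difference -1.43, adjusted p = 0.0337). Pgd, of the pentose phosphate pathway, which supplies NADPH, was the sole call of 21 glucose and glycogen genes (1.22% of all features were lower). It fell by 0.79 ± 0.11 (adjusted p = 0.0176), lost without HFD 1, HFD 3, HFD+APS 2 and HFD+APS 3 (highest adjusted p = 0.0733). At an unadjusted p under 0.05, limma gave 4 of the 21 lower and 0 higher (1420 and 1335 of all 15372 features).

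Clock genes, which swing over the day, moved with single arrays. Of 16 tested 0 passed, and 1 was lower at an unadjusted p under 0.05 in limma (1420 of all 15372 features were). Their centred median was -0.72 on HFD+APS 1 against 0.32 and 0.11 on the other HFD+APS arrays, and 0.47, 0.27 and -0.19 on HFD arrays. Dbp, an output gene of the clock, had 6.10, 5.77 and 3.39 on HFD and 1.07, 5.69 and 5.66 on HFD+APS arrays. HFD+APS 1 and HFD 3 stood below the rest, and the difference of -0.95 ± 1.24 did not pass (adjusted p = 0.726). The time of day at which each liver was taken is not given in the sources used here.

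**Figure D5:**
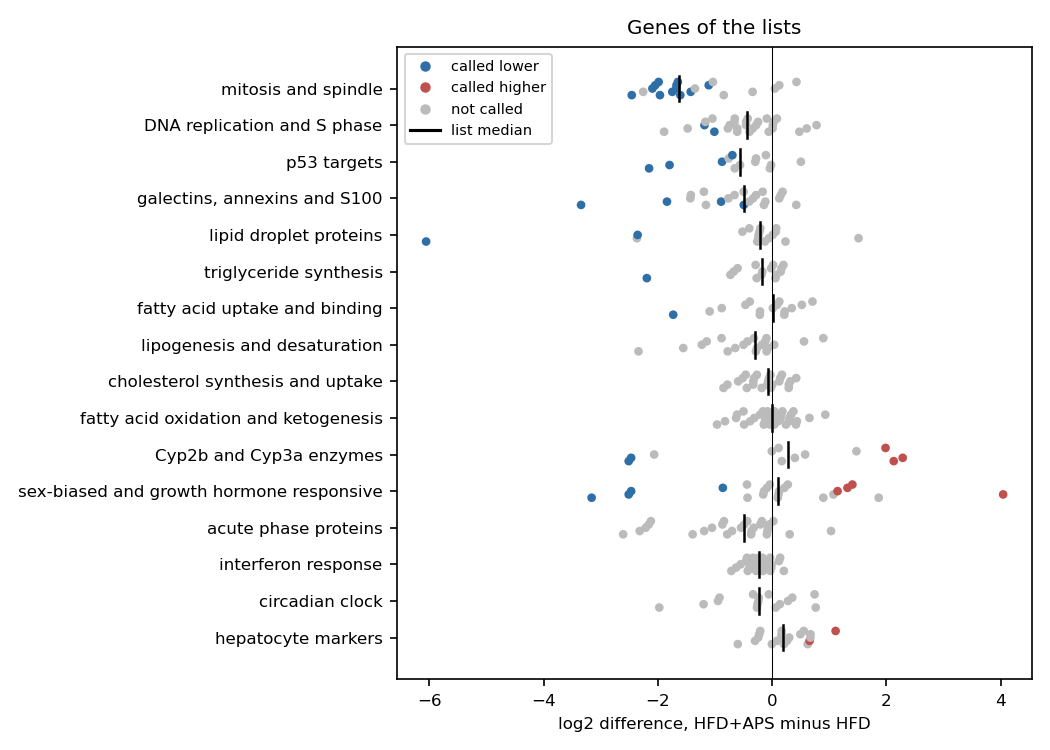
Each point is a gene of a list, placed at its log2 difference of HFD+APS minus HFD, in blue where it was called lower, in red where called higher and in grey otherwise, and the black bar is the list's median. The mitosis list has the lowest median of the 16 lists drawn, at -1.63, and the lists of lipogenesis, cholesterol synthesis, fatty acid oxidation, acute phase, interferon and clock genes hold no coloured point.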

How the data were processed

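RNA of 9 livers was hybridised to 1-colour Agilent mouse arrays, 1 array a liver. The deposited scanner tables hold spot intensity and 0 or 1 detection calls, made with Agilent Feature Extraction 10.7.1.1, per the file headers (the submitters' processing notes give 10.7), and probe positions are mm9 per the file headers. The deposited table of all samples holds log2 values (column medians 4.98 or 4.99, r of at least 0.997 with log2 processed signal), neither centred by gene nor signed as ratios; its normalization is not given in the sources used here, though the submitters' processing notes name limma.

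Here log2 of the deposited processed signal minus each array's 75th percentile was used, without control spots and outlier-marked spots. Probes well above background on 3 of the 6 HFD and HFD+APS arrays entered, with the brightest probe per gene. Probes were named through RefSeq by their own accession (27668), another accession (85), symbol (5533) or synonym (457), and 7431 kept the file's name. limma 3.58.1 in R 4.3.3 fitted all 9 arrays (6 residual degrees of freedom, 2.39 prior), with two-sided moderated tests and Benjamini-Hochberg adjustment over all 15372 features at 0.05. The fit was tested on simulated data with independent normal values and no slide effect. Such data cannot show how slides, or features that move together on single arrays, affect the calls. The number of arrays limits the precision. Whether probes lie in exons, introns or UTRs was not determined.

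Genes named are the given markers, the 12 largest falls and rises called, up to 4 calls per list and a fixed set; other genes are identified in the text as chosen later. Results for some genes are not reported here. The members and lists were chosen with earlier results of these data known. A list's centred median is the median over its tested genes of values centred on each gene's mean over arrays. Same-numbered HFD and HFD+APS arrays did not deviate together (r = -0.09, 0.13 and -0.20), so replicate numbers do not pair them. Alternatives changed the normalization, background correction, filter, probe rule, slide term, array weights, replicate block and arrays included.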

Additional observations from a re-analysis of the deposited data

How the results depend on the processing

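The 188 lower and 77 higher calls became 121 and 105 with median centring, 60 and 22 without a filter on dim probes (more features tested), 24 and 9 on the 6 arrays alone (fewer samples), 108 and 127 within the shared slide, and 832 and 508 with array weights. With the replicate number as a block, which does not pair these samples, 86 were lower and 47 higher. Leaving out each array in turn gave 39 to 376 lower and 21 to 117 higher. The other alternatives gave 173 to 196 lower and 81 to 105 higher, except the random slide block with 129 and 53. Every called gene kept its sign under all alternatives in which it was tested, except Arg1, at -0.23 in the deposited table. Where no cause is named, the cause was not tested. The reversals among genes not called were as follows. With median centring Per1 was 0.018. With the mean of probes Fgf21 was 0.017. Within the shared slide Plin2 was 0.36, Cyp7a1 -0.15, Fgf21 1.32, Saa1 0.85, Adgre1 0.13, Nr1d1 -0.37 and Cdkn1a 0.40. With the random slide block Fgf21 was 0.13. With array weights Srebf1 was 0.10, Hmmr -0.048, Per1 0.14, Sqle 0.31, Kif11 -0.080 and Bub1 -0.082. Leaving out each array in turn gave -0.43 to 0.28 for Srebf1, -0.33 to 0.0029 for Acaca, -0.78 to 0.30 for Fgf21, -0.25 to 0.78 for Hmmr, -1.80 to 0.59 for Dbp, -0.32 to 0.22 for Per1, -0.96 to 0.40 for Sqle, -0.18 to 0.33 for Kif11 and -0.14 to 0.21 for Bub1. Signal over background limited 8 lower calls, whose HFD+APS signals were not well above background on any array, and 13 higher ones, whose HFD signals were not.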

Other observations

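The genes below were named after their values were seen. Further genes of cell division outside the list were lower in HFD+APS livers in limma with Benjamini-Hochberg adjustment. Pbk, a mitotic kinase, fell by 2.12 (adjusted p = 0.0143), Trip13, an ATPase of the spindle checkpoint, by 1.57 (adjusted p = 0.0252), Spc25, a kinetochore subunit, by 1.42 (adjusted p = 0.0248), Cdca8, a subunit of the chromosomal passenger complex, by 1.40 (adjusted p = 0.0132) and Kifc1, a minus-end kinesin, by 1.50 (adjusted p = 0.0378). Pbk lost its call without HFD 1 (adjusted p = 0.0511) and Cdca8 without HFD+APS 2 (adjusted p = 0.0516), while Trip13, Spc25 and Kifc1 lost theirs without HFD 2, HFD 3 or HFD+APS 2 among others (highest adjusted p = 0.0901, 0.0877 and 0.121). Rcan2, an inhibitor of calcineurin, had 1.22, 1.02 and 1.79 on HFD and -0.54, -1.10 and -1.01 on HFD+APS arrays and fell by 2.23 ± 0.25 (adjusted p = 0.00823). Its relative Rcan1 fell by 0.97 (adjusted p = 0.0409), a call kept only without chow 2 and without HFD+APS 1 (highest adjusted p = 0.125). Nt5e, the ectonucleotidase that makes adenosine, fell by 1.15 ± 0.12 (adjusted p = 0.00705).

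Among the higher genes, Sdsl, a serine dehydratase-like enzyme, rose by 0.98 (adjusted p = 0.0252), Ivd, of leucine breakdown, by 0.67 (adjusted p = 0.0336) and Hgd, of tyrosine breakdown, by 0.62 (adjusted p = 0.0489). All 3 lost their call without HFD 1, HFD 2, HFD 3 or HFD+APS 2 (highest adjusted p = 0.0867 for Sdsl, 0.118 for Ivd and 0.147 for Hgd). Slco2a1, the prostaglandin carrier, had 1.69, 1.99 and 1.85 on HFD and 2.88, 2.92 and 2.98 on HFD+APS arrays and rose by 1.08 ± 0.11 (adjusted p = 0.00705). Igfbp2, an IGF-binding protein, had 4.14, 4.77 and 2.59 on HFD and 6.69, 5.62 and 6.26 on HFD+APS arrays, without overlap, but its difference of 2.35 ± 0.55 did not pass (adjusted p = 0.0738). Of 259 called features with an mm9 position, 22 lay within 100 kb of another, in 11 pairs, of which 9 moved the same way. How many of all features lie this close was not counted, and most calls were lower, so these counts have no reference. One pair, Cyp3a44 and Cyp3a11, has probes that can read each other's transcripts. Cidea and Tubb6, 34.9 kb apart, and Bex4 and Tceal8, 30.5 kb apart, were pairs that moved the same way, though the other probe of Tubb6 hardly fell.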
